A study of Mus musculus with 6 samples.

Results

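To determine whether transcripts of border macrophages differed between sorted microglia with and without PGC-1α overexpression, 10 marker genes of these cells were examined on 1-colour arrays. The genes were Mrc1, Cd163, Stab1, Clec10a, Lyve1, Folr2, Pf4, F13a1, Cbr2 and Ms4a7. They are listed as markers of these cells, and each probe was assigned through its transcript accession. The 10 genes are among 23462 genes named on the array and were carried by 15 of its 56605 probes. Cells came from C57BL/6 mice aged 10 weeks, described as male, and were selected with magnetic beads against the microglial receptor P2RY12. The control group, PGC-1αf/f, carried a loxP-flanked PGC-1α allele with an enhanced GFP gene and no Cre. The mPGC-1α group carried the same allele together with a tamoxifen-inducible Cre expressed from Cx3cr1, which switches PGC-1α on in microglia. Each group had 3 arrays. The methods describe tamoxifen induction of these mice without stating it separately for the array samples. Nothing in the labels says whether an array held 1 mouse or a pool, so the p-values below measure the spread between these arrays.

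Border macrophages are the resident macrophages of the meninges, the perivascular spaces and the choroid plexus. They lie outside the brain tissue proper, where microglia reside, and are known for taking up blood- and cerebrospinal fluid-borne material through scavenger and lectin receptors. Most of them also express Cx3cr1, the gene that drives Cre here. Several of the markers are shared with other cells: F13a1 with monocytes, Pf4 with platelets, and Lyve1 and Stab1 with lymphatic or sinusoidal endothelium.

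Macrophages and microglia depend on the transcription factor PU.1, whose binding motif has the core GAGGAA. To show what the markers share in sequence, the 250 bases before the transcription start were searched for GAGGAA on both strands in RefSeq promoters of the build GRCm38.p6. The table held promoters of 8 of the 10 genes, all but Lyve1 and Clec10a. The letters occurred before at least 1 start of 5 genes, in 5 of 11 promoter windows, against 23.3% of 32851 windows in the whole table. A match is a run of letters only. For these 5 genes, 60 bases around the match nearest to the start are printed on the gene's strand with the match in capitals. The stretches are chr2:14229352-14229411 (plus strand) for Mrc1, chr14:31168642-31168701 (minus) for Stab1, chr5:90772375-90772434 (plus) for Pf4, chr13:37050278-37050337 (minus) for F13a1 and chr11:120732068-120732127 (minus) for Cbr2. The capitals read TTCCTC where the match lay on the opposite strand, as in Mrc1 and Pf4.
Mrc1: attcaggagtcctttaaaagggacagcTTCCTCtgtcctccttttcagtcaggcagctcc
Stab1: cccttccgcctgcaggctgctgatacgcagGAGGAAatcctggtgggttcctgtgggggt
Pf4: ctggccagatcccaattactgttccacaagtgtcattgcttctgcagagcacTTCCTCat
F13a1: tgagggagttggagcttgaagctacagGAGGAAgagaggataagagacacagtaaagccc
Cbr2: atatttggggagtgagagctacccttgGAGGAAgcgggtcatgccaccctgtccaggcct
The match nearest to the start lay 8 bases before it in Pf4, 30 in Stab1, 35 in Mrc1, 66 in F13a1 and 79 in Cbr2. Mrc1 held 3 matches and each of the other 4 genes held 1.

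Of 59305 spots, 27025 to 30272 were well above background on each array, and 0 were saturated. The targeted gene Ppargc1a was 0.80 higher in mPGC-1α microglia on the log2 scale (SE 0.35, limma adjusted p 0.306), with groups that overlapped, and 0.44 higher without PGC-1αf/f replicate 3. The microglial genes P2ry12 and Tmem119 lay between 3.68 and 4.84 log2 units above the array's 75th percentile wherever they were measured. A pair of arrays stood apart. Averaged over its pairs, the correlation of PGC-1αf/f replicate 3 was 0.928, against 0.962 to 0.972 for the remaining arrays. On mPGC-1α replicate 3, labelled male, no signal well above background was found for 4 Y-linked genes, and its 5 control spike-ins averaged 2.10 against 0.86 to 1.15 on the other arrays. The female transcript Xist was well above background on this array and on replicate 2 of both groups, and on no other. The main results are therefore also given without the replicate 3 arrays.

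Each marker gene had a probe well above background on all 6 arrays, so the transcripts were detected in cells selected through P2RY12. None of the 10 genes differed between mPGC-1α and PGC-1αf/f microglia at an adjusted p of 0.05 by limma, where 0.0611% of 13100 tested genes did. At an unadjusted p under 0.05 the count was also 0, against 7.92% of genes higher and 5.83% lower. All 10 fitted differences were above 0, as were 53.2% of all tested genes. Their median was 0.27 on the log2 scale, against 0.023 over all tested genes. Without mPGC-1α replicate 3 the median was -0.029, with 5 of 10 differences above 0. When arrays were scaled on their median instead, the 10 genes had a median of 0.12, with 7 of 10 above 0. In sorted bulk samples, a change in the number of border macrophages and a change in a transcript per cell cannot be told apart. The levels below are log2 signals relative to the 75th percentile of their array, given in the order of replicates 1, 2 and 3, and differences are mPGC-1α minus PGC-1αf/f.

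**Figure D1:**
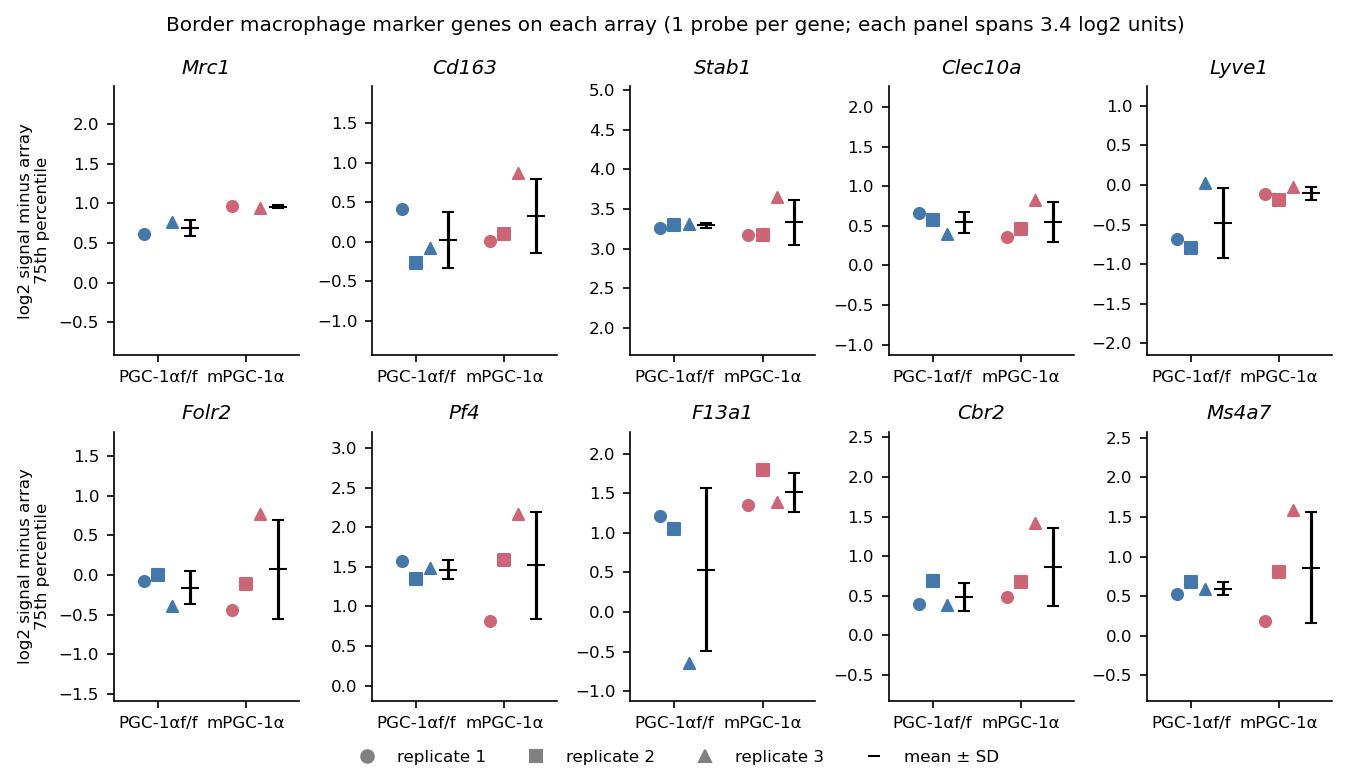
Level of each marker gene on each array, as log2 signal relative to the 75th percentile of that array (vertical axis), for the 3 PGC-1αf/f (blue) and 3 mPGC-1α arrays (red). Symbols mark the replicate, and bars are mean ± SD. For 7 of the 9 genes with 6 values, the highest point is mPGC-1α replicate 3, while in F13a1 a single low PGC-1αf/f point separates from the rest.

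The receptors for glycans and scavenged proteins were examined first. Mrc1, the mannose receptor CD206, gave 0.62 and 0.76 on PGC-1αf/f replicates 1 and 3 and 0.97 and 0.94 on mPGC-1α replicates 1 and 3. Its spots on both replicate 2 arrays were marked as outliers and left out. The difference was 0.26 (SE 0.17, 95% interval -0.18 to 0.71, adjusted p 0.475). With the outlier spots kept, replicate 2 measured 0.97 in PGC-1αf/f and 0.60 in mPGC-1α microglia, the groups overlapped and the difference was 0.053. The apparent separation of the groups in Mrc1 was therefore present only when those spots were dropped.

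Cd163, the scavenger receptor for haemoglobin-haptoglobin complexes, measured 0.42, -0.27 and -0.080 in PGC-1αf/f and 0.015, 0.10 and 0.87 in mPGC-1α microglia. The highest value was that of mPGC-1α replicate 3, and the other 5 arrays were interleaved. The means were 0.023 ± 0.36 and 0.33 ± 0.47 (SD, n = 3 each), a difference of 0.31 (SE 0.28, limma adjusted p 0.596). This difference was 0.037 without mPGC-1α replicate 3, 0.16 without PGC-1αf/f replicate 2 and 0.50 without PGC-1αf/f replicate 1. On no array was a second Cd163 probe well above background, and it was not tested. Stab1, encoding the multiligand scavenger receptor stabilin-1, measured 3.26, 3.30 and 3.32 in PGC-1αf/f and 3.17, 3.17 and 3.65 in mPGC-1α microglia. Thus the mPGC-1α arrays lay on both sides of the tightly grouped control arrays. The means were 3.29 ± 0.026 and 3.33 ± 0.28 (SD, n = 3 each), and the difference was 0.039 (SE 0.17, 95% interval -0.36 to 0.44, limma adjusted p 0.921). Clec10a, a C-type lectin that binds galactose-type sugars, measured 0.66, 0.57 and 0.39 in PGC-1αf/f and 0.36, 0.46 and 0.83 in mPGC-1α microglia. Again the groups overlapped, with the highest and the lowest of the 6 values both on mPGC-1α arrays. Its difference was 0.0062 (SE 0.17, 95% interval -0.39 to 0.41, limma adjusted p 0.988). The second Clec10a probe was on no array well above background.

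Lyve1 encodes a hyaluronan receptor of lymphatic endothelium that also marks perivascular macrophages. It measured -0.68, -0.79 and 0.025 in PGC-1αf/f and -0.11, -0.18 and -0.023 in mPGC-1α microglia. Lyve1 was the only 1 of the 9 genes with 6 values to be highest on PGC-1αf/f replicate 3, as 26.4% of all such genes were, and the other control arrays were its lowest. The means were -0.48 ± 0.44 and -0.11 ± 0.081 (SD, n = 3 each), with a difference of 0.38 (SE 0.23, 95% interval -0.16 to 0.92, limma adjusted p 0.426). Leaving out PGC-1αf/f replicate 3 gave a difference of 0.63 (SE 0.15, limma adjusted p 0.165), and without mPGC-1α replicate 3 it was 0.33. Folr2, the folate receptor beta of resident macrophages, measured -0.080, 0.00014 and -0.40 in PGC-1αf/f and -0.44, -0.12 and 0.77 in mPGC-1α microglia. A single mPGC-1α array lay above all controls and the lowest value was also an mPGC-1α array. The difference of 0.23 (SE 0.31, limma adjusted p 0.728) was -0.12 without mPGC-1α replicate 3.

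Among the secreted factors, Pf4, the chemokine CXCL4 that is also abundant in platelets, measured 1.57, 1.34 and 1.49 in PGC-1αf/f and 0.81, 1.58 and 2.16 in mPGC-1α microglia. The mPGC-1α arrays spanned a range on both sides of the controls. The means were 1.47 ± 0.12 and 1.52 ± 0.68 (SD, n = 3 each), and the difference was 0.052 (SE 0.32, 95% interval -0.71 to 0.82, limma adjusted p 0.946). It was -0.27 without mPGC-1α replicate 3. Of 10 platelet genes, 4 were well above background on all arrays and 5, among them Ppbp, Gp1ba, Itga2b and Tubb1, on none. The platelet list summed to 6.34, 5.49 and 6.63 in PGC-1αf/f and to 3.98, 4.41 and 4.56 in mPGC-1α microglia, so the mPGC-1α arrays lay below the controls. Of the detected genes, Gp9 and Itgb3 differed by -0.98 and -0.68 (limma adjusted p 0.112 and 0.135), and Treml1 and Clec1b by 0.42 and 0.079 (limma adjusted p 0.701 and 0.818). The part of platelets in the Pf4 values was not tested.

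F13a1, the A subunit of coagulation factor XIII, measured 1.21, 1.04 and -0.65 in PGC-1αf/f and 1.35, 1.80 and 1.39 in mPGC-1α microglia. All mPGC-1α arrays lay above all controls, and PGC-1αf/f replicate 3 was far below the other 5. F13a1 was the only 1 of the 9 genes with 6 values whose groups did not overlap in this direction, as 12.2% of all tested genes with 6 values did. The means were 0.54 ± 1.03 and 1.51 ± 0.25 (SD, n = 3 each). The difference of 0.98 (SE 0.48), or 1.97-fold with a 95% interval of 0.90 to 4.31, was the largest of the 10 genes and did not exceed the spread between arrays (limma adjusted p 0.346). With PGC-1αf/f replicate 3 left out it was 0.38 (SE 0.19, limma adjusted p 0.459). A dim second probe was well above background on 1 array of each group and was not tested.

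Cbr2, a carbonyl reductase, measured 0.39, 0.68 and 0.38 in PGC-1αf/f and 0.49, 0.67 and 1.42 in mPGC-1α microglia. Only mPGC-1α replicate 3 lay above all controls. The means were 0.49 ± 0.17 and 0.86 ± 0.50 (SD, n = 3 each), with a difference of 0.38 (SE 0.26, limma adjusted p 0.473) that was 0.095 without that array. The second Cbr2 probe measured -1.11, -0.86 and -1.77 in PGC-1αf/f and -1.02, -0.63 and -0.33 in mPGC-1α microglia. Its groups overlapped through mPGC-1α replicate 1 alone. The difference of 0.59 (SE 0.28) had the smallest unadjusted p of the 12 tested probes, 0.0742 by limma, with an adjusted p of 0.339.

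Ms4a7, encoding a 4-transmembrane protein of border macrophages and inflammatory myeloid cells, was covered by probes annotated to different transcripts. Whether each probe detects only its own transcript was not tested. The brighter probe measured 0.52, 0.68 and 0.58 in PGC-1αf/f and 0.19, 0.81 and 1.58 in mPGC-1α microglia. The other measured 0.16, 0.72 and 0.48 in PGC-1αf/f and -0.079, 0.19 and 1.15 in mPGC-1α microglia. On both probes mPGC-1α replicate 1 was the lowest array and replicate 3 the highest. The differences were 0.27 (SE 0.33, limma adjusted p 0.697) and -0.033 (SE 0.33, limma adjusted p 0.966), and the latter was the only 1 of the 12 tested probes with a fitted difference below 0, where 49.7% of all tested probes lay above 0.

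**Figure D2:**
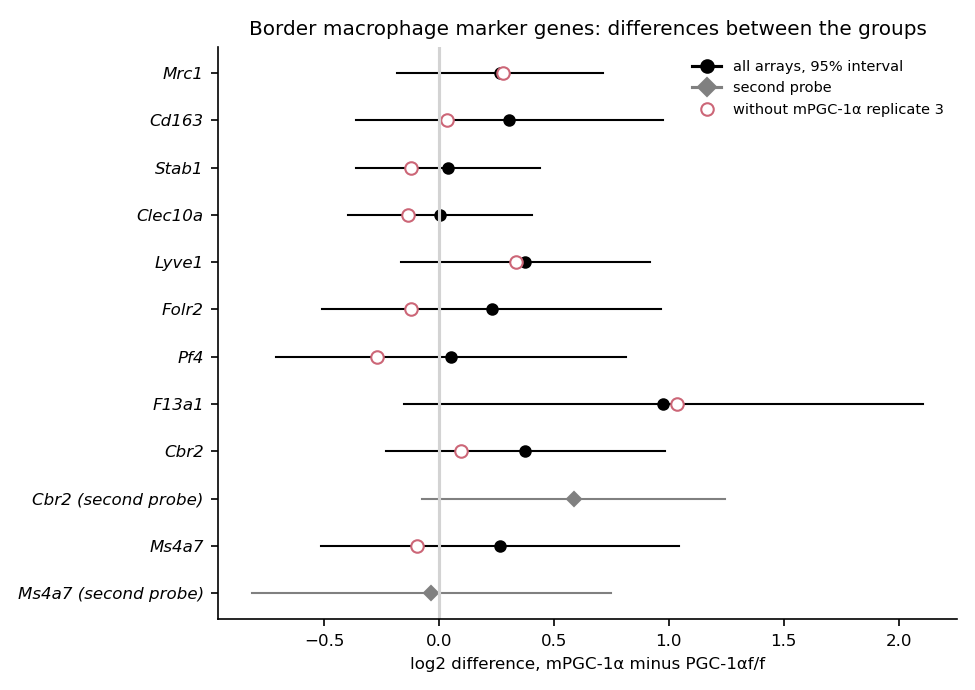
Log2 difference of each tested probe, mPGC-1α minus PGC-1αf/f (horizontal axis), with its 95% interval from limma. Black circles are the probes that stand for a gene, grey diamonds second probes, and open circles the difference without mPGC-1α replicate 3. Every interval includes 0, and without that array Stab1, Clec10a, Folr2, Pf4 and Ms4a7 lie below 0.

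Next, the position of mPGC-1α replicate 3 was compared with that of all genes. Among the 9 marker genes with 6 values, 7 were highest on this array, all but Lyve1 and F13a1, against 23.1% of 12302 genes. It lay above both other mPGC-1α arrays for 8 of 9, all but F13a1, against 41.5% of genes. The gap between this array and the mean of mPGC-1α replicates 1 and 2 had a median of 0.81 over the 9 genes. Over all genes the median gap was 0.029, and the range from the 5th to the 95th percentile was -0.56 to 0.52. The gaps of Ms4a7, Folr2, Pf4, Cbr2 and Cd163 were 1.08, 1.05, 0.96, 0.84 and 0.81, beyond that range. Stab1 and Clec10a had gaps of 0.48 and 0.42, Lyve1 of 0.13 and F13a1 of -0.18, all within it. The opposite end of the group was mPGC-1α replicate 1, the lowest of the 6 arrays for 5 of the 9 genes (Pf4, Ms4a7, Stab1, Clec10a and Folr2), against 15.8% of genes. The mPGC-1α arrays therefore spread more widely in these genes than the controls, with F13a1 and Lyve1 as exceptions. These counts describe arrays already seen to differ and were given no test.

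**Figure D3:**
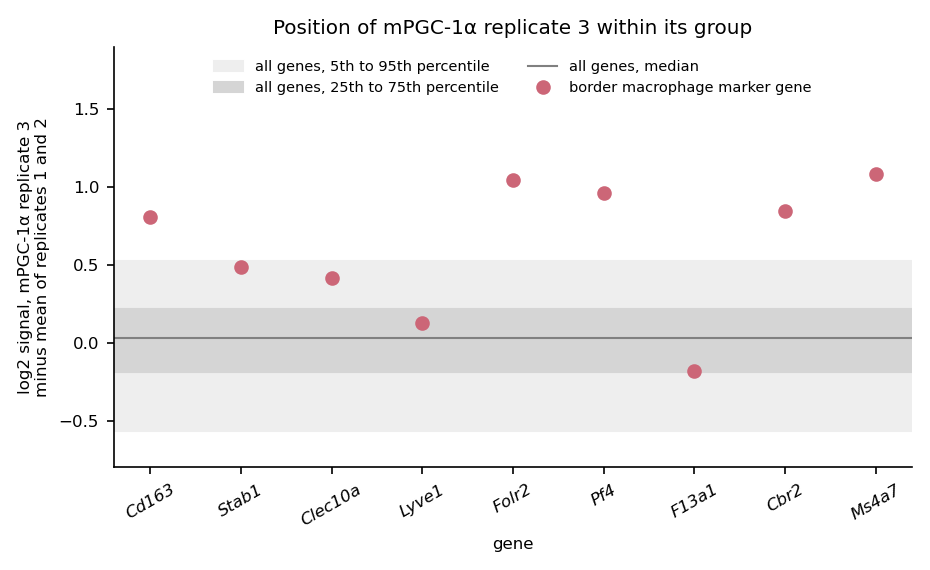
Gap between mPGC-1α replicate 3 and the mean of mPGC-1α replicates 1 and 2 in log2 signal (vertical axis) for the 9 marker genes with 6 values (red points). Shading shows the 5th to 95th and 25th to 75th percentiles over all genes and the line their median of 0.029. Ms4a7, Folr2, Pf4, Cbr2 and Cd163 lie above the outer band.

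The 9 genes were then compared by their profile over the 6 arrays, each centred on its own mean. The mean profile was -0.037, -0.12 and -0.28 in PGC-1αf/f and -0.20, 0.076 and 0.56 in mPGC-1α microglia. The closest pair was Stab1 and Clec10a, with a root mean square difference of 0.10 in log2 units over the 6 arrays. Folr2 was nearest to Cbr2 (0.14), and Ms4a7 to Folr2 (0.15). Pf4 was nearest to Ms4a7 (0.17), Cd163 to Folr2 (0.26) and Lyve1 to Stab1 (0.32). F13a1 stood apart, since its nearest gene, Cbr2, was at 0.72 and it was the farthest gene for each of the other 8. Among 3492 genes outside the marker lists with an SD over the arrays of at least 0.3, the profiles closest to the mean of the 9 were those of Ccdc69 (0.056), Sec61g (0.069), Srcap (0.086), Nup37 (0.089) and Cdkl3 (0.098). All 5 were highest on mPGC-1α replicate 3, where the mean profile used to choose them also peaks, so this was set by the choice. None passed the test, with limma adjusted p-values from 0.359 to 0.627.

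**Figure D4:**
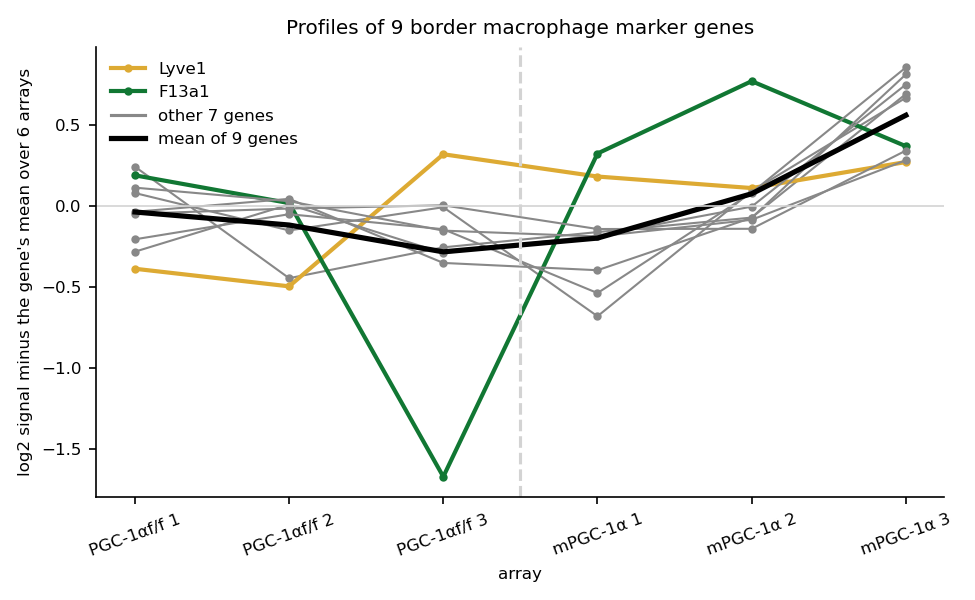
Level of each of the 9 marker genes minus its mean over the 6 arrays, in log2 units (vertical axis), by array (horizontal axis). The black line is the mean of the 9 genes, which is highest at 0.56 on mPGC-1α replicate 3. F13a1 (green) drops to -1.67 on PGC-1αf/f replicate 3, where Lyve1 (yellow) is at 0.32.

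Slide position was compared as well. All arrays lay on 1 slide with PGC-1αf/f in row 1 and mPGC-1α in row 2, so that row and group cannot be told apart. Columns 1 and 2 held an array of each group, namely both replicate 1 arrays and both replicate 2 arrays. In column 1 the difference of the single arrays was above 0 for 4 of 10 genes (Lyve1, Mrc1, F13a1 and Cbr2) with a median of -0.20. In column 2 it was above 0 for 5 of 9 genes (F13a1, Lyve1, Cd163, Pf4 and Ms4a7) with a median of 0.13. Lyve1 and F13a1 were the genes above 0 in both columns, at 0.57 and 0.61 for Lyve1 and at 0.13 and 0.75 for F13a1. With the column as a random block the median of the 10 genes was 0.20. Without both replicate 3 arrays, which lay in columns of their own, the median was -0.057, Lyve1 differed by 0.59 (limma adjusted p 0.241) and F13a1 by 0.44 (limma adjusted p 0.426).

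Markers of other cell types were then measured on the same arrays. The summed level of a list is the sum of the signal relative to the array's 75th percentile over its genes with 6 values, tested or not. For the 9 border macrophage genes it was 22.1, 21.5 and 20.2 in PGC-1αf/f and 19.8, 23.1 and 31.7 in mPGC-1α microglia, so that 5 arrays lay close together and mPGC-1α replicate 3 above them. The microglial list was summed over 9 of its 16 genes, with P2ry12 and Tmem119 among those left out. The sum ranged from 159 to 195 in PGC-1αf/f and from 145 to 170 in mPGC-1α microglia. Of the 16 microglial genes, 15 had a fitted difference below 0 and 1 above, and none passed an adjusted p of 0.05. Their median was -0.18 (-0.14 without PGC-1αf/f replicate 3 and -0.21 without mPGC-1α replicate 3). Cx3cr1, a microglial gene and the site of Cre in the mPGC-1α mice, was 0.51 lower with groups that did not overlap, as 10.8% of genes did in this direction (limma adjusted p 0.194). On mPGC-1α replicate 3, the 10 tested lymphocyte genes with 6 values all lay above both other mPGC-1α arrays, with a median gap of 0.58. The lymphocyte list had a summed level of 15.0 on this array, against 8.57 and 10.9. Of 15 lymphocyte genes, 10 were well above background on all arrays, including the cytotoxic cell genes Nkg7 and Gzma and the B cell receptor gene Cd79b, and 4, including Cd79a, Klrb1c and Ncr1, on none. In contrast, 0 of 8 choroid plexus epithelium genes lay above both other mPGC-1α arrays there, and their summed level was 112 against 125 and 105. All 8 were lowest on PGC-1αf/f replicate 3 and had a fitted difference above 0, with a median of 0.44 that was 0.12 without that array. Ttr, the choroid plexus transthyretin gene, had the smallest difference of the 8, 0.071 (limma adjusted p 0.864). The part of other cells in the high border macrophage values of this array was not tested.

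PGC-1αf/f replicate 3, where F13a1 was low, was also low in monocyte, neutrophil and lymphocyte genes, and not in platelet genes. Over 13 of its 14 genes, the monocyte list summed to 43.7, 58.8 and 10.7 in PGC-1αf/f and to 58.2, 70.4 and 70.7 in mPGC-1α microglia. Of 12 tested monocyte genes with 6 values, 11 were lowest on PGC-1αf/f replicate 3. All 13 tested monocyte genes had a fitted difference above 0, with a median of 0.92 that was 0.37 without PGC-1αf/f replicate 3. The classical monocyte genes Ly6c2 and Ccr2 differed by 1.08 and 0.50 (limma adjusted p 0.375 and 0.441). Over 13 of its 14 genes, the neutrophil list summed to 132, 156 and 30.7 in PGC-1αf/f and to 156, 164 and 183 in mPGC-1α microglia. Over its 10 genes well above background on all arrays the median difference was 1.51, or 0.33 without PGC-1αf/f replicate 3. Its genes S100a8 and S100a9 differed by 1.11 and 0.74 (limma adjusted p 0.450 and 0.482). Over the 9 border macrophage genes the median gap between PGC-1αf/f replicate 3 and the mean of its group's other arrays was -0.15, against -2.02 for monocyte and -4.54 for neutrophil genes, and 2 of the 9 (F13a1 and Cbr2) were lowest there, against 33.4% of all genes. The gap of F13a1 alone was -1.78. The part of blood cells in the F13a1 value was not tested.

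**Figure D5:**
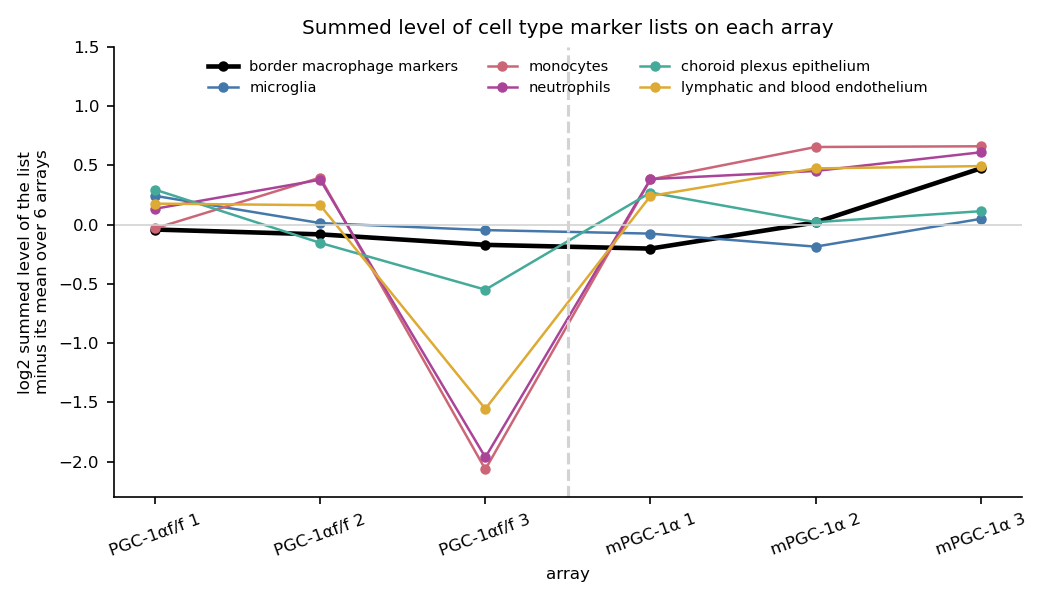
Summed level of 6 cell type marker lists on each array, as log2 minus the list's mean over the 6 arrays (vertical axis). Monocyte, neutrophil and endothelial lists (the last including Ly6c1) drop on PGC-1αf/f replicate 3, while the border macrophage list (black) stays near its mean there and is highest on mPGC-1α replicate 3.

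Endothelial and fibroblast lists were followed because Lyve1 and Stab1 also mark vessels and border macrophages lie beside vessels. The endothelial list summed to 4.87 on PGC-1αf/f replicate 3 and to between 16.03 and 20.1 on the other 5 arrays. Ly6c1, which monocytes share, was the larger part of this sum on those 5 arrays, and without it the list summed to 6.08, 4.64 and 2.54 in PGC-1αf/f and to 5.36, 6.27 and 6.63 in mPGC-1α microglia. Of its 14 genes, 7 were well above background on all arrays, including Ly6c1, Flt1, Kdr, Cldn5 and Slco1a4. These 7 all had a difference above 0, with a median of 0.74 that was 0.060 without PGC-1αf/f replicate 3. Flt4, Stab2 and Tek were on no array well above background, and Prox1, the lymphatic regulator, was above background on 1 array and not tested. Lyve1 was highest on the array where this list, with or without Ly6c1, was lowest. The fibroblast list summed to 8.12, 5.51 and 3.44 in PGC-1αf/f and to 8.12, 8.27 and 8.69 in mPGC-1α microglia. Of its 10 genes, 6 were well above background on all arrays, and 5 of these 6 had a difference above 0, with a median of 0.63 that was 0.27 without PGC-1αf/f replicate 3. Dcn and Pdgfra differed by 1.39 and 1.24 (limma adjusted p 0.192 and 0.122). Their groups did not overlap, as for 12.2% of all tested genes with 6 values. Col3a1 and Lum were on no array well above background, and no Col1a1 probe was so on more than 2 arrays of a group. The genes of the platelet, lymphocyte, endothelial and fibroblast lists other than Ppbp, Prox1 and Col1a1 were named after their values were seen, and the part of these cells in the Lyve1 and Stab1 values was not tested.

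Finally, 40 further genes of border macrophages were examined, many of which, such as Lyz2, Clec12a and the class II genes, are shared with blood monocytes or dendritic cells. Of these, 33 were tested, and Cd209b, Cd209d, Cd209g, Vsig4, Timd4, Pla2g2d and Marco were not. None passed an adjusted p of 0.05 by limma, the smallest adjusted p being 0.139. An unadjusted p under 0.05 was found for 8 genes with a difference above 0 and for 2 below 0, against the 7.92% and 5.83% of all genes given above. The 8 include Lyz2, which had 1 measured array per group. The fitted difference was above 0 for 23 and below 0 for 10 of the 33, with a median of 0.18. That median was 0.093 without PGC-1αf/f replicate 3, 0.21 without mPGC-1α replicate 3 and 0.048 without both. Among 27 tested genes with 6 values, groups did not overlap for 3 higher and 1 lower, against 12.2% and 10.8% of all such genes. On mPGC-1α replicate 3, 20 of these 27 lay above both other mPGC-1α arrays. Their median gap was 0.29, between that of all genes and that of the 9 markers.

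Cd38, an NAD-consuming ectoenzyme, measured -1.27, -0.70 and -1.69 in PGC-1αf/f and -0.27, 0.18 and 0.53 in mPGC-1α microglia. All mPGC-1α arrays lay above all controls, as for 12.2% of all tested genes with 6 values. The difference was 1.37 (SE 0.30, limma adjusted p 0.139), or 1.14 when PGC-1αf/f replicate 3 was dropped and 1.18 without mPGC-1α replicate 3. Lyz2, the lysozyme gene of myeloid cells, had 1 measured array per group after outlier spots were dropped (2.37 and 3.91), and with those spots kept it differed by 0.90 (limma adjusted p 0.255), or by 0.51 without PGC-1αf/f replicate 3. Clec12a, an inhibitory lectin receptor of myeloid cells, differed by 0.93 (limma adjusted p 0.323), or 0.46 without PGC-1αf/f replicate 3. The chemokine gene Ccl8 differed by 0.82 (limma adjusted p 0.591), by 0.22 without PGC-1αf/f replicate 3 and by 0.29 without mPGC-1α replicate 3. Its values overlapped between the groups.

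At the lower end, Slc40a1, the iron exporter ferroportin, measured 1.88, 1.78 and 2.54 in PGC-1αf/f and 1.59, 1.32 and 1.61 in mPGC-1α microglia. All mPGC-1α arrays lay below all controls, as for 10.8% of all tested genes with 6 values, and PGC-1αf/f replicate 3 was the highest. The difference was -0.56 (SE 0.23, limma adjusted p 0.284), and -0.33 without PGC-1αf/f replicate 3. Cd209f, a lectin of perivascular macrophages, measured -1.23, -0.96 and -0.87 in PGC-1αf/f and -2.14, -1.61 and -1.15 in mPGC-1α microglia. The groups met at mPGC-1α replicate 3, its highest array of the group. The difference was -0.62 (SE 0.26, limma adjusted p 0.298), and -0.86 without that array. Maf, a macrophage transcription factor, differed by -0.36 (limma adjusted p 0.455, 2 mPGC-1α arrays), or -0.18 without PGC-1αf/f replicate 3. The scavenger receptor gene Cd36 differed by -0.20 (limma adjusted p 0.744), or -0.52 without mPGC-1α replicate 3.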

How the data were processed

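Per the labels, total RNA was amplified, labelled with Cy5 and hybridised to one-colour Agilent mouse arrays. The deposited scanner files hold, per spot, the intensity after the authors' Feature Extraction background subtraction and detrending, with flags for outliers and for spots well above background. A deposited table of the whole series holds the same intensity unnormalised. Control and outlier spots were left out, the log2 intensity was shifted by each array's 75th percentile and spots of a probe were averaged. Probes well above background (at least 0.5 of their spots) on all arrays of a group were tested, 25333 in all, of which 25257 had a p-value. The array number limits the precision. RefSeq accessions named 33767 probes, used for names only. The brightest probe with values on all arrays stood for a gene. Groups were compared by two-sided moderated tests in limma 3.58.1 (functions lmFit and eBayes, Benjamini-Hochberg over all probes, R 4.3.3, package data.table in version 1.17.8), tested on simulated data. Figures and counts used Python 3.11.15, numpy 2.4.6, pandas 2.3.3 and matplotlib 3.10.9. Members, lists and rules were chosen with earlier results of these data known. Named were all 10 members, of the further genes the 4 highest and 4 lowest differences well above background on all arrays, defining genes of other cell types, and the 5 most alike profiles. Alternatives covered normalisation, background, filters, probe choice, weights, blocks and single arrays.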

Additional observations from a re-analysis of the deposited data

How the results depend on the processing

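With 19 alternatives, of which 2 (outlier spots kept, and both replicate 3 arrays left out) were chosen after seeing the data, 0 of the 10 genes passed an adjusted p of 0.05, except under array weights. There, 1 did (Lyve1, 0.59, adjusted p 0.0292), as did 7 of the further genes, with weights of 5.28 for PGC-1αf/f replicate 2, 3.4 for mPGC-1α replicate 2 and 0.31 to 0.81 for the others. Under these weights 3494 of 25257 probes, 13.8%, passed the threshold. The median of the 10 genes was 0.13 under array weights and 0.12 under a median shift, with 7 of 10 above 0 in each. For Lyve1 the adjusted p ranged from 0.0292 to 1 over the alternatives. The median of the 10 genes ranged from -0.029 to 0.43 when single arrays were left out, and was -0.029 without mPGC-1α replicate 3 and -0.057 without both replicate 3 arrays. Leaving out both also gave -0.26 for Pf4, -0.015 for Cd163, -0.10 for Ms4a7, -0.11 for Stab1, -0.21 for Clec10a and -0.24 for Folr2. With single arrays left out, Pf4 ranged from -0.27 to 0.41, Cd163 from 0.037 to 0.504, Ms4a7 from -0.095 to 0.60, Stab1 from -0.12 to 0.12, Clec10a from -0.13 to 0.10 and Folr2 from -0.12 to 0.48. A median shift, which moved the median of all probes to -0.14, gave -0.080 for Pf4, -0.093 for Stab1 and -0.13 for Clec10a. Normexp with quantile normalisation gave -0.025 for Pf4 and -0.047 for Stab1, and quantile normalisation alone gave -0.066 for Stab1. The slide column as a random block gave -0.030 for Pf4 and -0.050 for Clec10a. Array weights gave -0.077 for Stab1, -0.094 for Clec10a and -0.060 for Folr2, and the unnormalised table gave -0.033 for Clec10a. Mrc1, Lyve1, F13a1 and Cbr2 kept a difference above 0 in all 19, ranging from 0.053 to 0.35, 0.22 to 0.63, 0.38 to 1.32 and 0.043 to 0.56. The median of the further genes ranged from 0.045, under a median shift, to 0.27. The cause of these shifts was not tested. The deviations of same-numbered arrays from their group means correlated at 0.14 and 0.13 for replicates 1 and 2, which shared a slide column, and at 0.019 for replicate 3, which did not (22997 probes), so no pairing of all arrays was assumed. With the replicate number as a block the median stayed 0.27, 0 genes passed the adjusted threshold and 1 was past an unadjusted p of 0.05 (F13a1, p 0.0497, adjusted p 0.268 by limma). An unadjusted p under 0.05 was also found for F13a1 without PGC-1αf/f replicate 1 (0.0348) and in the unnormalised table (0.0277), for Lyve1 without PGC-1αf/f replicate 3 (0.00356) and without both replicate 3 arrays (0.0081), and for both genes under array weights (F13a1 0.0219, Lyve1 0.00233). Signal over background limited the second probes of Cd163, F13a1 and Clec10a, which were not tested.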
